A study of Mus musculus with 16 samples.

Results

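Glucocorticoid-induced genes were followed in endothelial cells (EC) of the mouse lung, the cells that line its vessels, during growth, resection and spread of a tumour. The set was chosen by name and held 7 of the 28692 gene symbols of the deposited table: Nr3c1, which encodes the glucocorticoid receptor, and Tsc22d3, Klf9, Zbtb16, Sgk1, Fkbp5 and Sult1a1. Single EC came from female C57BL/6N mice: wild-type (d0), bearing a primary tumour (d15), after the tumour was resected (d22) or bearing metastases (d36). The tumour was Lewis lung carcinoma, a mouse lung cancer line placed under the skin of the tumour-bearing mice. Cells were sorted by flow cytometry and their RNA was counted at the 3′ end of transcripts with a droplet kit that tags molecules with unique molecular identifiers (UMIs). Neither the number of mice per day nor their age is stated in the labels.

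Glucocorticoids such as corticosterone are adrenal steroid hormones that enter cells and bind the receptor, which waits in the cytosol with heat shock proteins. The bound receptor moves to the nucleus and binds DNA as a dimer at a palindromic element, where it raises genes such as Tsc22d3 and Fkbp5, or it restrains inflammatory genes. Plasma hormone follows a daily rhythm and rises under stress, and many receptor targets also respond to other signals.

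After filtering, 8814 of 9036 deposited cells counted as EC, or 2614, 1469, 3186 and 1545 cells at d0, d15, d22 and d36. Their summed counts ranged between 6627240 at d36 and 27648101 at d22, and the median count per cell was 7676, 4215, 7694 and 3507 at the same days. The 10 general endothelial markers were all detected at each day and summed to 12403 to 14143 CPM (counts per 1000000). The 6 general leukocyte markers summed to 0.506 to 3.47 CPM. In the same EC sums, 10 macrophage markers gave 14.981 to 22.03 CPM and 10 epithelial markers 111 to 195 CPM. Cells rich in markers of another type had already been left out. Low sums of such markers therefore follow in part from that filter and do not measure purity. The EC sums include 391 Malat1-poor cells, or 141, 41, 111 and 98 at d0, d15, d22 and d36. Most lay in a cluster of 345 cells with 2554 CPM of Malat1, against 49535 to 52350 CPM over the EC of a day. These cells belong to none of the 4 vessel classes compared below. The labels list 4 libraries per day, but cell names carry only the day, so each day was 1 pooled sample, no spread between mice or libraries was measured, and no test or p-value was possible. Across day pairs, 36 cell barcodes were shared.

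The deposited counts of single cells were not spread evenly. At d0, d15, d22 and d36 the value 4 made up 45.1%, 54.8%, 46.6% and 53.9% of nonzero values, and 8 was more frequent than 7 or 9 at each day. Of the 2255 EC with any Tsc22d3 count, 1199 held exactly 4. A count was therefore not taken as an independent molecule: every 95% interval here was computed after dividing counts by 4, and covers counting error only.

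**Figure D1:**
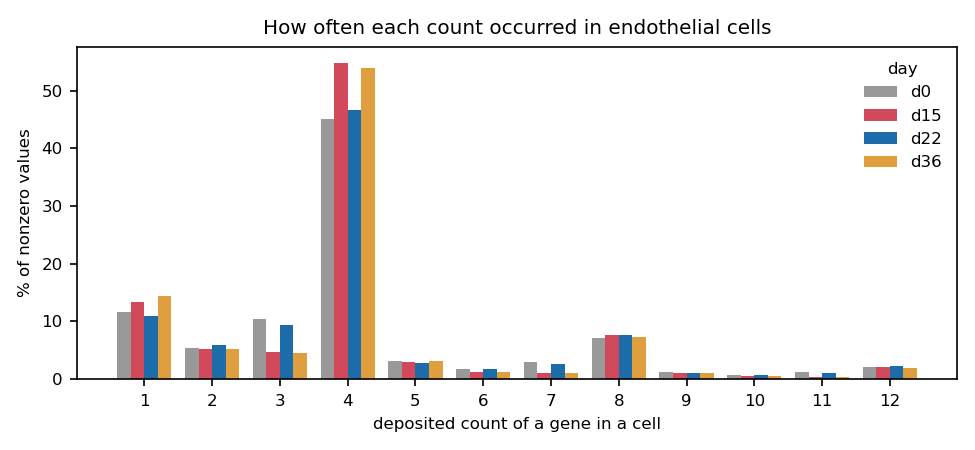
Share of nonzero values (y axis, %) at each deposited count from 1 to 12 of a gene in an EC (x axis), with a bar for each day. The peak at 4 holds 45.1% to 54.8% of nonzero values, and a lower peak stands at 8.

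Summed over EC, Tsc22d3 and Sult1a1 were higher at d36 than at d0, Sgk1 was higher at each later day than at d0 by less than the fold set for a call, and the receptor gene Nr3c1 differed by less than its counting error. Tsc22d3 was also lower at d22 than at d15. Levels are CPM of the day's EC total. Genes reaching 50 CPM on one of the days compared and 200 counts over the pair were taken as measured. To pass the size rule, a measured gene needed a difference of 1.5-fold or more, higher or lower, whose interval left out 1. Because d0 is shared by the comparisons of d15, d22 and d36 with it, those ratios are not independent of each other.

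**Figure D2:**
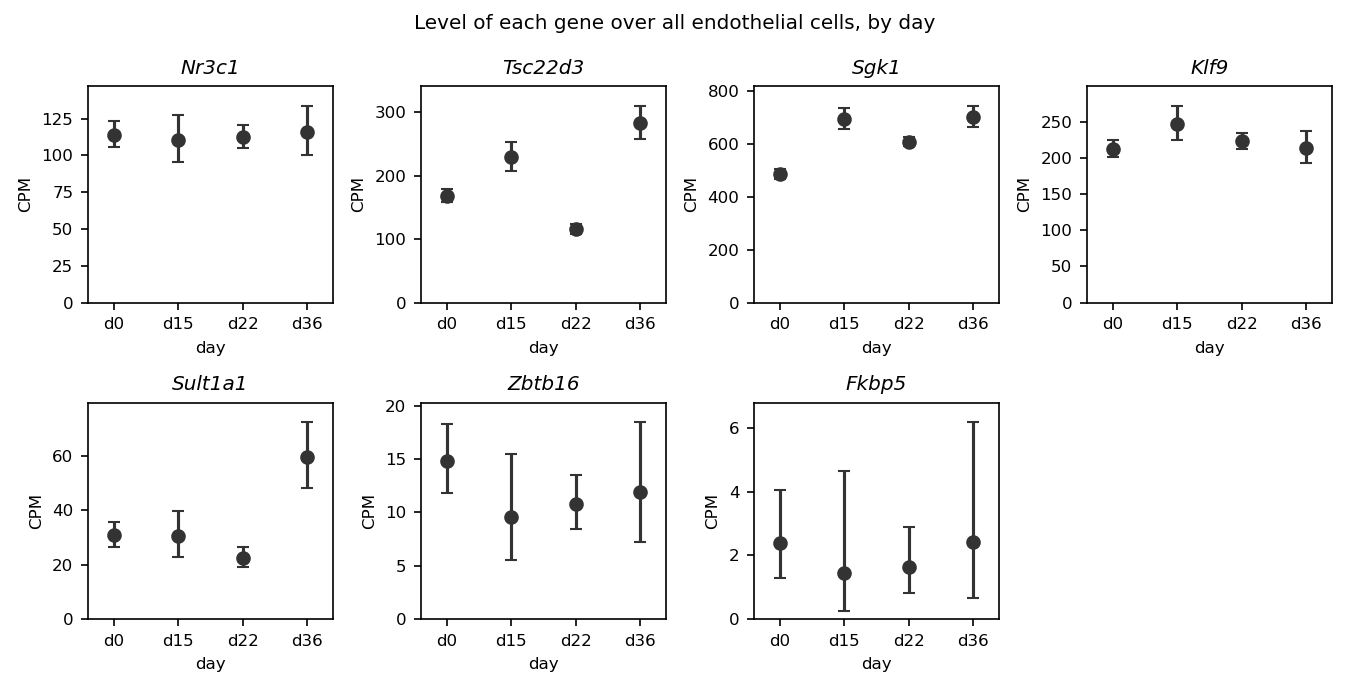
Level (y axis, CPM from 0) of each gene over all EC at d0, d15, d22 and d36 (x axis). Points are the pooled sample of the day and bars its 95% counting interval. Tsc22d3 is lowest at d22 and highest at d36, and Nr3c1 lies between 111 and 116 CPM.

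Nr3c1 encodes the receptor itself and lies on chromosome 18 at 39410545-39519421, minus strand (mm10, the GRCm38 assembly, with GENCODE gene models; all gene positions here use these). It measured 114 CPM at d0 (95% interval 105 to 123), 111 CPM at d15 (95.6 to 128), 113 CPM at d22 (105 to 121) and 116 CPM at d36 (100.4 to 134). All 4 intervals overlap. The ratio was 0.972 at d15 over d0 (0.823 to 1.14), 0.989 at d22 over d0 (0.890 to 1.099) and 1.02 at d36 over d0 (0.863 to 1.20). Among the 4 classes of EC compared below, no pair had Nr3c1 intervals apart at any day.

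Tsc22d3, also known as GILZ, encodes a leucine zipper protein that restrains NF-kappaB and AP-1 and is a classical direct receptor target. The gene spans chromosome X 140539528-140600659, minus strand. It measured 169 CPM at d0 (158 to 180), 229 CPM at d15 (207 to 253), 116 CPM at d22 (108 to 124) and 284 CPM at d36 (258 to 310). No pair of these intervals overlaps. Its ratio to d0 was 1.36 for d15 (1.21 to 1.53), 0.687 for d22 (0.625 to 0.756) and 1.68 for d36 (1.503 to 1.88), and of these the ratio at d36 passed the size rule. In the steps between later days the ratio was 0.505 at d22 over d15 (0.447 to 0.572) and 2.45 at d36 over d22 (2.18 to 2.75), both past the rule.

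The levels of Tsc22d3 moved with depth, since the days with the higher level, d15 and d36, had the lower counts per cell. The median mitochondrial share per cell, 1.90%, 1.97%, 1.61% and 2.96% at d0, d15, d22 and d36, followed the same order as Tsc22d3, and its part in the result was not tested. Within cells of 3000 to 8000 counts at every day the ratio of d36 over d0 was 1.73 and that of d22 over d0 was 0.716. With each cell thinned to 1500 counts these ratios were 1.69 and 0.650. A cluster of low counts led by mitochondrial genes held 4.06%, 20.3%, 4.90% and 23.0% of EC at d0, d15, d22 and d36, and Tsc22d3 measured 222 CPM in it. Without that cluster the ratio of d36 over d0 was 1.69.

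Sgk1 encodes a serine/threonine kinase that acts on ion channels and transporters and is induced by glucocorticoids and mineralocorticoids, but also by serum and cell shrinkage. It lies on chromosome 10 at 21882184-21999903, plus strand. It measured 485 CPM at d0 (467 to 503), 694 CPM at d15 (655 to 735), 608 CPM at d22 (590 to 627) and 702 CPM at d36 (662 to 744). The level at d0 lay below those of the 3 later days, whose ratios to d0 were 1.43 for d15 (1.34 to 1.53), 1.254 for d22 (1.19 to 1.32) and 1.45 for d36 (1.35 to 1.55). Each interval left out 1, and none of the 3 ratios reached 1.5. The levels at d15 and d36 overlap, with a ratio of 1.01 for d36 over d15 (0.933 to 1.098).

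Of 6 listed Sgk1 promoters, 1 is shown because it holds the whole receptor palindrome, a rare match among all promoters. Only 3 of the 6 held an arm of it. RefSeq promoters (GRCm38.p6) run from 250 bases before to 50 bases after a transcript start. The palindrome, AGAACA and TGTTCT with 3 bases of any kind between them, was found in 3 of 32851 such promoters (0.00913%), and its single arm, TGTTCT or AGAACA on either strand, in 6233 (19%). Of 12 promoters of 5 members, 5 held the arm and 1 held the palindrome. Capitals mark the arms, which start at -242, -189 and -180 from the transcript start, the last 2 forming the palindrome:
Sgk1 promoter, chr10:21993640-21993939, plus strand: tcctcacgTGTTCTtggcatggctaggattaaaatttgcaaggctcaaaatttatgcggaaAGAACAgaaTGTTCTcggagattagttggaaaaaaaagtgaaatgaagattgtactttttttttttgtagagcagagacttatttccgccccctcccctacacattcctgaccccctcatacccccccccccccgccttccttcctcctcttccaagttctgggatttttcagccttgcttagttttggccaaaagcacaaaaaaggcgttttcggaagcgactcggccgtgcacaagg

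In Tsc22d3 and Sult1a1, promoters with single arms are shown for comparison with Sgk1. For Tsc22d3 this is the only 1 of 3 listed promoters with an arm, and Sult1a1 has 1 listed promoter. The Tsc22d3 arm starts at -185 and the Sult1a1 arms at -212 and -34. These are letter matches and not measured binding sites.
Tsc22d3 promoter, chrX:140600473-140600772, minus strand: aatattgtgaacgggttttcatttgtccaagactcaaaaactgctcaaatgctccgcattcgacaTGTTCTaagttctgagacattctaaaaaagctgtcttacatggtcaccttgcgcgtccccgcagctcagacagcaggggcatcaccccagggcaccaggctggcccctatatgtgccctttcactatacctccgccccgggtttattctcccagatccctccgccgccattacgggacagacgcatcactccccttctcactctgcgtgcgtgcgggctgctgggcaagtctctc
Sult1a1 promoter, chr7:126676369-126676668, minus strand: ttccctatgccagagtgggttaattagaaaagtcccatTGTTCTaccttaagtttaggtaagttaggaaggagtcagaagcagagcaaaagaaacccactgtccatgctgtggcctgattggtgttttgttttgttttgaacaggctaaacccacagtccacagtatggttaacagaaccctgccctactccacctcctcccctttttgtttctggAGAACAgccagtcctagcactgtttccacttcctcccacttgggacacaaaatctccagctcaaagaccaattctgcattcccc
No match stood in the listed promoter of Fkbp5 or Klf9, which says only that these letters are not in those windows.

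Klf9 encodes a zinc finger factor of the Kruppel-like family that is induced by glucocorticoids and thyroid hormone. It spans chromosome 19 23141226-23168134, plus strand. It measured 213 CPM at d0 (201 to 225), 248 CPM at d15 (225 to 272), 223 CPM at d22 (212 to 234) and 214 CPM at d36 (193 to 238). The 4 values lie close together, with a ratio of 1.16 at d15 over d0 (1.04 to 1.30), 1.05 at d22 over d0 (0.971 to 1.13) and 1.01 at d36 over d0 (0.892 to 1.13). Within cells of 3000 to 8000 counts the 3 ratios were 0.966, 0.940 and 0.874, all below 1.

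Sult1a1 encodes a cytosolic sulfotransferase that conjugates phenols and other small molecules and is known to be induced by glucocorticoids in rat liver. It lies on chromosome 7 at 126672865-126676432, minus strand. It measured 30.8 CPM at d0 (26.4 to 35.7), 30.4 CPM at d15 (22.7 to 39.8), 22.6 CPM at d22 (19.2 to 26.4) and 59.5 CPM at d36 (48.3 to 72.4). The d36 interval lies above those of the other days. The ratio was 1.93 for d36 over d0 (1.49 to 2.48), 1.96 for d36 over d15 (1.38 to 2.79) and 2.63 for d36 over d22 (2.03 to 3.41), and all 3 passed the size rule. At d15 and d22 the gene stayed below the 50 CPM needed to be measured against d0.

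Sult1a1 shares exon sequence with Sgf29 on the other strand, and the labels do not state whether counting used strand. Sgf29 measured 44.7 CPM at d36, against 45.2 at d0. In the low-count cluster Sult1a1 measured 57.4 CPM, and without that cluster its ratio of d36 over d0 was 1.83. In cells of 3000 to 8000 counts the ratio was 1.84. Markers of mural cells and fibroblasts were also higher at d36 within the EC sums: 9 mural markers summed to 60.8 CPM at d36 and 31.4 at d0, and 8 fibroblast markers to 20.4 CPM at d36, with 2 of them at 0, and 12.9 at d0, with 1 at 0. Their part in the results on Sult1a1 and Tsc22d3 was not tested.

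Zbtb16, also called PLZF, encodes a zinc finger repressor that glucocorticoids induce in several cell types. It lies on chromosome 9 at 48654297-48836222, minus strand. It measured 14.8 CPM at d0 (11.8 to 18.3), 9.60 CPM at d15 (5.54 to 15.5), 10.8 CPM at d22 (8.47 to 13.5) and 11.9 CPM at d36 (7.26 to 18.5). The intervals of all 4 days overlap, and it was below the 50 CPM needed to be measured. The ratio of d36 over d0 was 0.806 (0.468 to 1.33).

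Fkbp5 encodes a co-chaperone that lowers hormone binding of the receptor and is induced by it, a short feedback loop. The gene spans chromosome 17 28399094-28517527, minus strand. Fkbp5 was near the detection limit: 43 EC held any count, and the level was 2.40 CPM at d0 (1.30 to 4.04), 1.45 CPM at d15 (0.242 to 4.66), 1.63 CPM at d22 (0.820 to 2.89) and 2.41 CPM at d36 (0.658 to 6.18). At this depth a difference between days was not detectable.

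Of the 7 genes, 0 passed the size rule at d15 over d0, where 6.49% of 3711 measured genes did, and 0 at d22 over d0, where 2.02% did. At d36 over d0, Tsc22d3 and Sult1a1 passed, both higher, against 159 of 3653 measured genes as higher (7.72% in either direction). In the steps 1 gene (Tsc22d3) passed as lower at d22 over d15, against 211 of 3696 measured genes as lower (7.49% in either direction). At d36 over d22, 2 genes (Tsc22d3 and Sult1a1) passed as higher, against 212 of 3632 (8.26% in either direction). At d36 over d15, 1 gene (Sult1a1) passed as higher, against 20 of 3655 (2.16% in either direction). Measured members numbered 4 at d15 over d0, 4 at d22 over d0 and 5 at d36 over d0. The median log2 ratio, with 1 CPM added, over the 6 members of at least 10 CPM was 0.10 at d15, -0.22 at d22 and 0.28 at d36 over d0, beside 0.021, -0.0063 and -0.029 over all genes of at least 10 CPM.

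**Figure D3:**
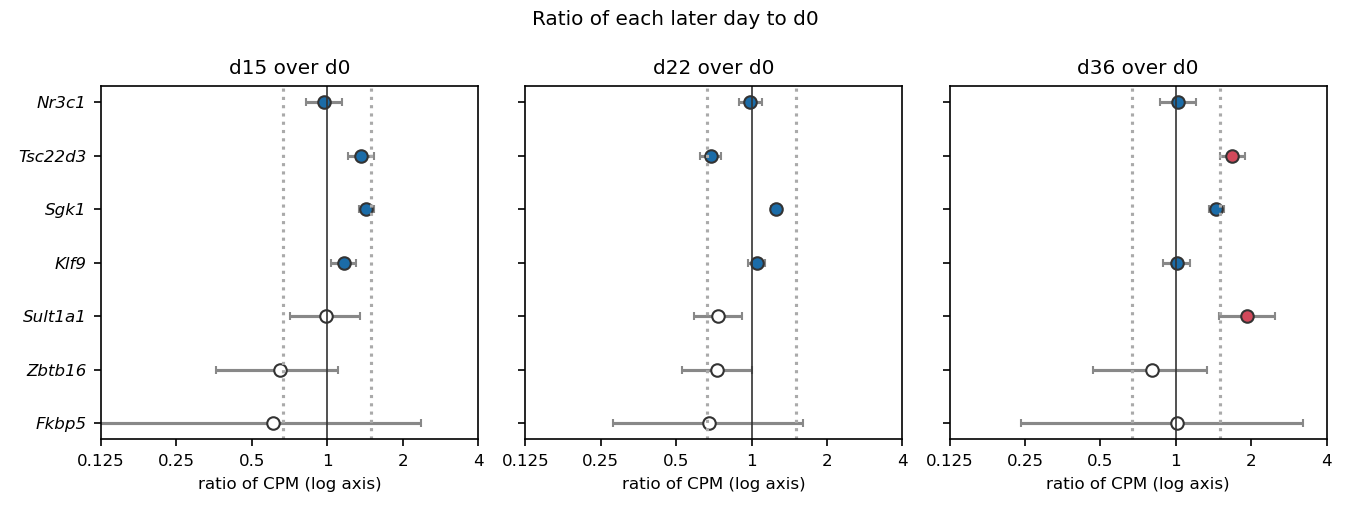
Ratio of CPM at each later day over d0 (x axis, log scale) for the 7 genes, with 95% counting intervals. Red points passed the size rule, blue ones were measured but did not, and open ones were below the level needed. Dotted lines mark 1.5-fold in either direction. Red marks Tsc22d3 (1.68) and Sult1a1 (1.93) at d36.

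In 4 of these genes, Tsc22d3, Sgk1, Sult1a1 and Klf9, the intervals of the 2 capillary types lay apart at every day. Among all genes of at least 10 CPM in these types, 4.33% lay apart at every day with aerocyte-like cells higher and 4.76% with general capillary-like cells higher. Intervals are relatively wider for genes of few counts, so such shares, here and below, also depend on the level of the genes. Clusters were named from marker lists as general capillary-like (the capillary cells with Gpihbp1 and Aplnr), aerocyte-like (the wide capillary cells with Ednrb and Apln), arterial-like and venous-like EC, and the 7 genes and the lists below were kept out of the genes used for clustering. The arterial-like name is weakly borne out for most of its cells. A cluster led by Esm1 held 613 of the 802, with arterial markers on average 0.370 log2 above other cells. In the other cluster, of 189 cells, this was 2.55. In a finer clustering, at resolution 2, a cluster led by Esm1 took no class name. Over all days Tsc22d3 was 111 CPM in the Esm1-led cluster and 72.9 in the other, and Klf9 was 295 and 233. General capillary-like cells numbered 1560, 1062, 2024 and 1039 at d0, d15, d22 and d36, aerocyte-like cells 450, 174, 543 and 239, arterial-like cells 270, 103, 328 and 101, and venous-like cells 136, 61 and 127 at d0, d15 and d22, with 39 at d36, too few to compare. Different clusters held most of a class at different days: in aerocyte-like cells a cluster of median 13411 counts held 392 of 450 cells at d0, and a cluster of median 2858 counts held 150 of 239 at d36. Among general capillary-like cells the fullest cluster was one led by Pcp4l1 at d0 (474 of 1560 cells), one led by Cadm1 at d15 (408 of 1062), one led by Cd74 at d22 (628 of 2024) and the low-count cluster led by mitochondrial genes at d36 (356 of 1039). In each of these 4 clusters Tsc22d3 was higher at d36 than at d0, with 229 CPM at d36 against 164 at d0 in the Pcp4l1-led cluster, 215 against 121 in the Cadm1-led, 212 against 177 in the Cd74-led and 267 against 138 in the low-count cluster. The intervals lay apart in the Cadm1-led cluster and overlapped in the other 3.

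**Figure D4:**
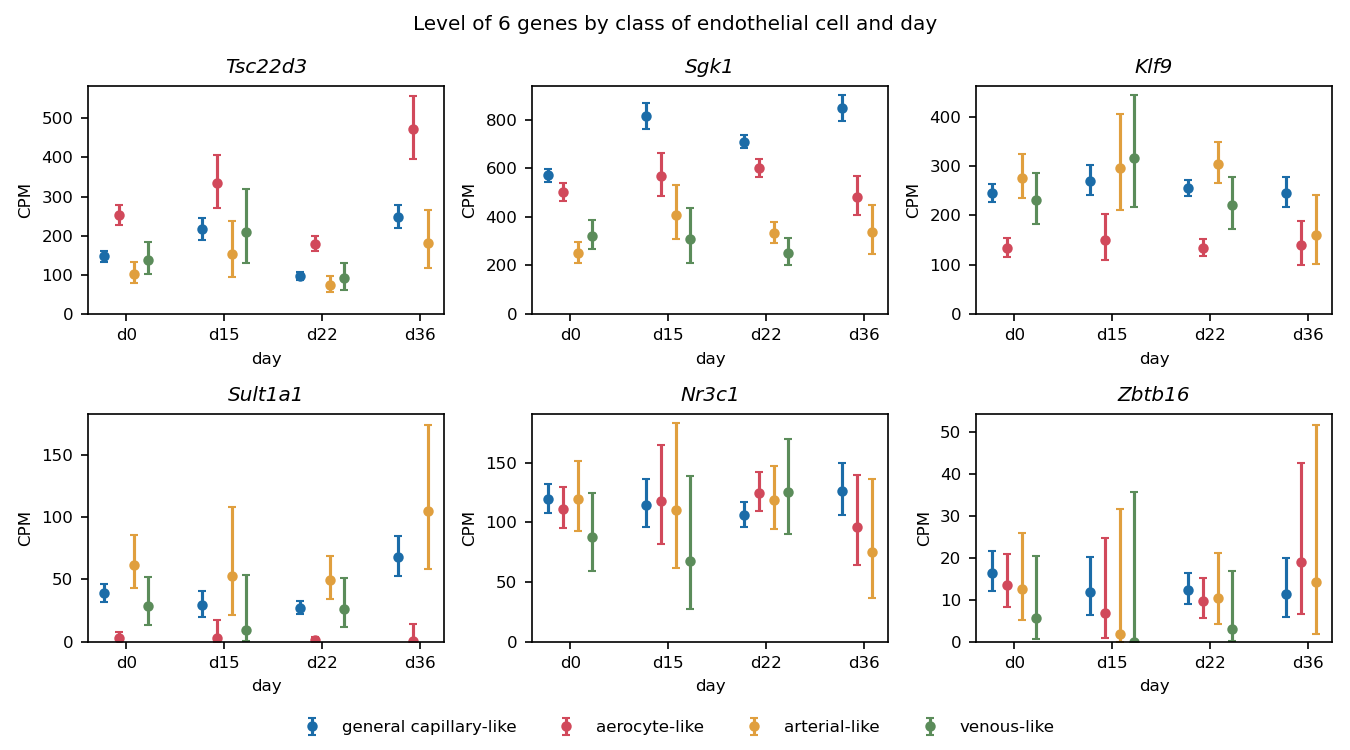
Level (y axis, CPM from 0) of 6 genes in general capillary-like, aerocyte-like, arterial-like and venous-like EC at each day (x axis), with 95% counting intervals; venous-like cells at d36 are left out. Tsc22d3 is highest in aerocyte-like cells at each day and Sult1a1 is near 0 there.

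Among the 4 classes compared, Tsc22d3 was highest in aerocyte-like cells. There it measured 252 CPM at d0, 334 CPM at d15, 179 CPM at d22 and 472 CPM at d36, against 147, 216, 96.6 and 247 in general capillary-like cells and 102, 154, 74.4 and 181 in arterial-like cells. The aerocyte interval lay above both other intervals at 4 of 4 days, which held for 4.33% of genes of at least 10 CPM against general capillary-like cells and for 2.57% against arterial-like cells. Venous-like cells had 139 CPM at d0, 210 CPM at d15 and 91.0 CPM at d22. Over all days the cluster of 50 cells led by Fabp4, too small to compare by day, had 265 CPM (169 to 397), against 241 CPM (225 to 257) in aerocyte-like cells, and these intervals overlap.

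Within classes the days of Tsc22d3 kept the order seen over all EC. At d36 over d0 the ratio was 1.68 in general capillary-like cells (1.44 to 1.96), 1.87 in aerocyte-like cells (1.53 to 2.28) and 1.76 in arterial-like cells (1.06 to 2.86), all past the rule, which 4.75%, 6.11% and 4.07% of measured genes passed as higher in those classes. At d22 over d15 it was 0.447, 0.536, 0.484 and 0.433 in general capillary-like, aerocyte-like, arterial-like and venous-like cells, all past the rule as lower, as were 6.97%, 6.14%, 5.27% and 5.26% of measured genes. At d36 over d22 the ratio was 2.56, 2.64 and 2.43 in the first 3 of these classes, where 6.38%, 7.91% and 5.15% of measured genes passed as higher. In general capillary-like cells Tsc22d3 also passed as lower at d22 over d0, with a ratio of 0.658 (0.571 to 0.756), against 1.77% of measured genes.

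The 2 aerocyte clusters gave the same order of d36 above d0. In the cluster of high counts Tsc22d3 measured 504 CPM at d36 (409 to 614) and 257 at d0 (232 to 285), and in that of low counts 405 at d36 (288 to 555) and 124.6 at d0 (52.0 to 251).

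Sgk1 ran the other way between the capillary types. General capillary-like cells had 570 CPM at d0, 814 CPM at d15, 709 CPM at d22 and 847 CPM at d36, against 500.4, 569, 600.1 and 483 in aerocyte-like cells, 249, 409, 332 and 338 in arterial-like cells, and 322, 309 and 251 in venous-like cells at d0, d15 and d22. The general capillary interval lay above that of aerocyte-like cells at 4 of 4 days, as for 4.76% of genes, and above that of arterial-like cells at 4 of 4 days, as for 0.619%. In arterial-like cells the ratio of d15 over d0 was 1.64 (1.18 to 2.26) and passed the rule, as did 4.6% of measured genes as higher. The highest Sgk1 level stood in a general capillary cluster of 170 cells led by Ntrk2 and Slc6a6, at 1361 CPM over all days (1230 to 1502), against 692 CPM (675 to 709) in the class as a whole.

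Sult1a1 was near 0 in aerocyte-like cells, with 3.05 CPM at d0, 2.55 CPM at d15, 1.11 CPM at d22 and 0.861 CPM at d36. Arterial-like cells had 61.7, 52.5, 49.2 and 106 CPM and general capillary-like cells 38.8, 29.1, 26.8 and 67.8 CPM at the same days. The arterial level lay above the general capillary level at 4 of 4 days, with intervals apart at 1. In general capillary-like cells the ratio of d36 over d0 was 1.75 (1.29 to 2.36), past the size rule. Smaller clusters had higher levels over all days: 177 CPM (100.04 to 289) in 50 cells led by Fabp4, a gene of systemic capillaries, and 116 CPM (62.6 to 196) in 68 lymphatic-like cells.

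Klf9 was lower in aerocyte-like cells, at 134 CPM at d0, 150 CPM at d15, 134 CPM at d22 and 139 CPM at d36, than in general capillary-like cells, at 244, 270, 255 and 246 CPM. The general capillary interval lay above at 4 of 4 days, as for 4.76% of genes. Arterial-like cells had 276 CPM at d0, 296 CPM at d15, 304 CPM at d22 and 159 CPM at d36. The arterial ratio of d36 over d0 was 0.577 (0.352 to 0.903) and passed the rule as lower, as did 3.41% of measured genes, on 89 counts at d36.

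Nr3c1, Zbtb16 and Fkbp5 gave smaller or less certain differences between classes. Nr3c1 ranged between 67.6 and 126 CPM over all classes and days compared, and no pair of classes had intervals apart at any day. Outside these classes and within them, clusters differed more. Over all days Nr3c1 was 200 CPM (117 to 318) in the Fabp4-led cluster and 52.8 CPM (31.5 to 82.9) in the Malat1-poor cells. A general capillary cluster of 684 cells led by Kit had 168 CPM (140 to 201), against 114 CPM (107 to 121) in its class. Zbtb16 ranged from 0 to 18.9 CPM. Fkbp5 was 15.6 CPM at d0 (5.40 to 35.0), 14.5 CPM at d15 (1.04 to 61.9) and 5.31 CPM at d22 (0.514 to 20.7) in venous-like cells, on 22, 6 and 7 counts, and at most 3.58 CPM in the other 3 classes at any day. In the cluster of 50 cells led by Fabp4 it was 25.7 CPM over all days (3.70 to 86.9), on 9 counts.

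**Figure D5:**
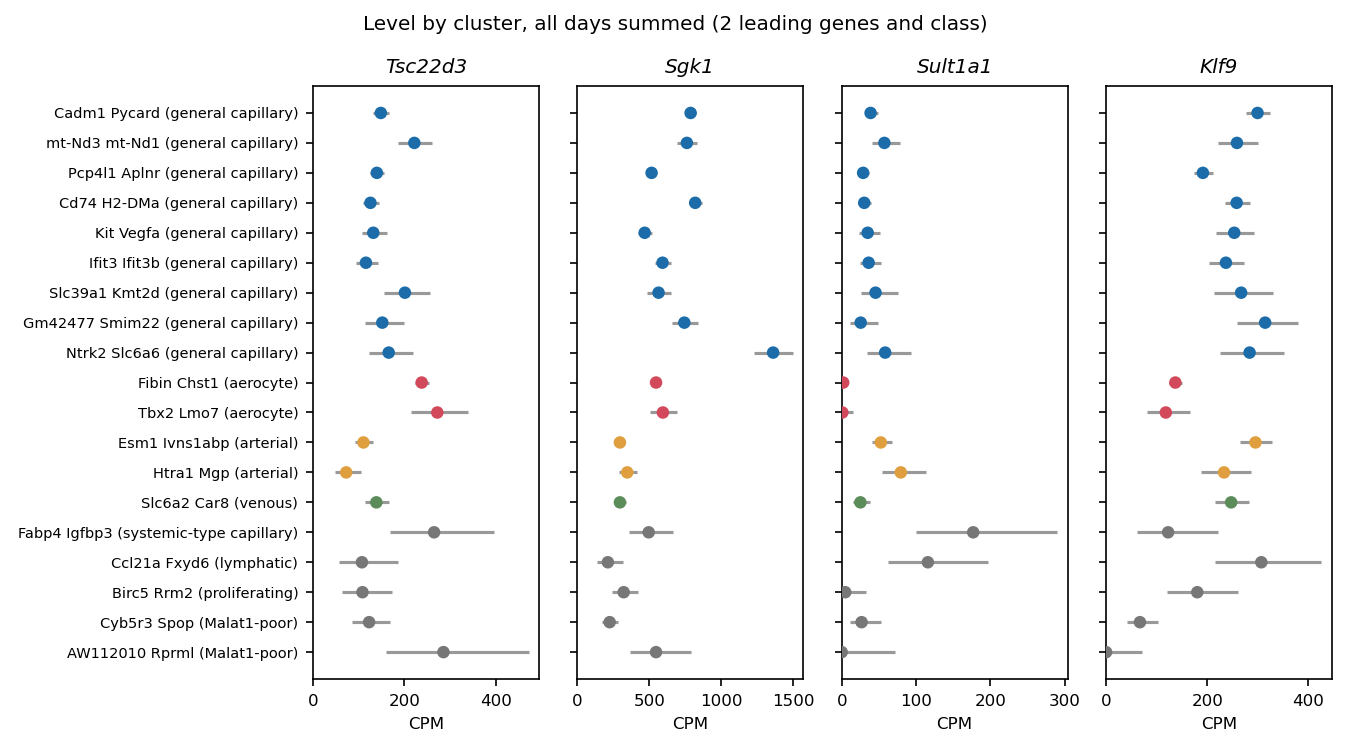
Level (x axis, CPM from 0) of 4 genes in each EC cluster with all days summed, with 95% counting intervals; clusters are named by their 2 leading genes and their class. Sgk1 stands out in the Ntrk2 and Slc6a6 cluster (1361 CPM) and Sult1a1 in the Fabp4 cluster (177 CPM).

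Across 15 groups of class and day, the genes most like Tsc22d3 in log2 CPM were Klf10 (Pearson r 0.95), Sdcbp (0.94) and Ywhae (0.89). For Sult1a1 they were Tns1 (0.97), Hbegf (0.95) and Avpi1 (0.95), for Sgk1 Nsg1 (0.86), Fendrr (0.86) and Ppt1 (0.85), and for Klf9 Bptf (0.92), Syne2 (0.90) and Ptpru (0.90). For Nr3c1 they were Snrpa1 (0.90), Clpp (0.83) and Vamp2 (0.82), but its intervals overlapped between days and between classes, so no likeness is read from them. The counts of Zbtb16 and Fkbp5 were too few to read a likeness from. For each member the 3 genes were picked for the highest r, so a high r is not itself a result. These describe groups that share days, depth and libraries. Those of Sult1a1 include the 4 aerocyte groups, with 18, 3, 8 and 1 counts of it at d0, d15, d22 and d36.

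Counts of other pathway genes past the size rule stand beside 6.49% of all measured genes at d15 over d0, 2.02% at d22 over d0 and 7.72% at d36 over d0. The 11 chaperones and co-chaperones that fold the receptor, such as Hsp90ab1 and Ptges3, were all measured at each later day over d0, and 0 passed. At d22 over d0 all 11 had ratios below 1 (median log2 ratio -0.21), as had 1692 of all 3562 measured genes. At d15 and at d36 over d0, 6 of the 11 had ratios above 1, and the median log2 ratios were 0.0041 at d15 and 0.029 at d36. Of 11 receptor coregulators, 7 were measured at d15 over d0 and Ncoa3, a coactivator, passed as higher at d15, at 63.1 CPM against 38.9 at d0 (ratio 1.62, 1.28 to 2.05). Of 39 other glucocorticoid-induced genes in the table, 14 were measured and Dusp1, a phosphatase that switches off MAP kinases, passed at d15, with 1340 CPM against 854 at d0 (ratio 1.57), and at d36, with 1384 CPM (ratio 1.62). At d22 over d0, 0 of the 14 measured genes passed. Among the listed genes of at least 10 CPM, 19 had ratios above 1 and 7 below at d15 over d0 (median log2 ratio 0.13). At d22 over d0 these numbers were 10 and 14 (-0.070), and at d36 over d0 they were 13 and 13 (0.025). Of 5 genes of hormone supply and the sister receptor, 0 were measured.

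Of 16 inflammatory genes that glucocorticoids are known to lower, 5 were measured and Vcam1, a leukocyte adhesion molecule, passed as lower, with 62.7 CPM at d15 and 55.2 at d36, against 106 at d0 (ratios 0.593 and 0.523). Vcam1 was among the leading genes of the venous-like cluster, which held 61 of 1469 EC at d15 and 39 of 1545 at d36, against 136 of 2614 at d0, and the part of this share in the result was not tested. Of 9 forkhead and stress genes, 3 were measured and Klf2, a flow-responsive factor, passed as higher, with 4062 CPM at d15 and 4498 at d36, against 2625 at d0 (ratios 1.55 and 1.71). Early response genes, which dissociation of tissue can raise, summed to 11149 CPM at d0, 13193 CPM at d15, 11569 CPM at d22 and 13237 CPM at d36, and 0 of 13 measured ones passed against d0. At d15 and at d36 over d0, 10 of the 14 listed genes had ratios above 1 and 4 below. The lower ones included Atf3 (0.678) and Egr1 (0.785) at d15, and Fos (0.883), Fosb (0.723) and Egr1 (0.839) at d36. Clock genes, whose level follows the time of day, summed to 149, 183, 133 and 160 CPM, with 0 measured. At d15 over d0, 5 clock genes of at least 10 CPM had ratios above 1 and 1 below. Among all those listed, Bhlhe40 (2.07, 1.40 to 3.01) and Ciart (1.74, 1.24 to 2.43) were higher. Dbp (0.676, 0.268 to 1.48) and Cry2 (0.285, 0.0450 to 1.003) had ratios below 1 with intervals that include 1. A sum over such genes does not give the hour. Both sums, though not every gene in them, were higher on the days when Tsc22d3 was higher. The part of these genes in the result was not tested, and the labels do not state the hour of collection.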

How the data were processed

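The deposited table holds counts, one whole number of UMIs for each gene in each cell, with no scaling by the authors seen in the values; Cell Ranger 2.1.1 and mm10 are named in the submitters' processing notes, and how the 4 libraries of a day were joined is not given in the sources used here. Cells under 300 genes or above 10% mitochondrial counts were dropped (19 cells). Scrublet called 25 of 9017 cells (0.277%), too few to take the caller as having worked, and these were dropped too. Clustering used 2000 variable genes, 30 components, 15 neighbours and Leiden resolution 1 (scanpy 1.11.5, leidenalg 0.10.2). Clusters and cells of other types, including cells with at least 2% of counts from another type's markers, were left out (178 cells), and some cluster rules were set after the clusters were seen. Intervals are exact (binomial for ratios, Poisson for levels) on counts divided by 4, a departure from the plain count interval first planned; the script was tested on simulated data. Members, lists and markers were chosen with earlier results of these data known. Named genes were the 7 members, up to 2 higher and 2 lower genes of each list past the size rule against d0, and the 3 most alike genes of at least 50 CPM. Alternatives covered scaling (TMM in edgeR 4.0.16 among them), level minimum, fold, cell choice, thinning and clustering.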

Additional observations from a re-analysis of the deposited data

Results flagged for a closer look

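Sgk1 moved in opposite directions in the 2 capillary types between d22 and d36. In general capillary-like cells the ratio of d36 over d22 was 1.19 (1.11 to 1.29), and in aerocyte-like cells it was 0.805 (0.670 to 0.960). The difference between the classes was not tested, since each day was 1 pooled sample, and neither ratio reached 1.5. In the aerocyte cluster of high counts Sgk1 measured 427 CPM at d36 (340 to 529) and 597 at d22 (562 to 635). In that of low counts it measured 596 at d36 (452 to 773) and 661 at d22 (490 to 871), and these intervals overlap. The 4 largest general capillary clusters were mixed, and in each of them the intervals of d36 and d22 overlap. Sgk1 was 929 CPM at d36 and 767 at d22 in the cluster led by Cadm1 and 1085 at d36 and 804 at d22 in that led by Cd74, but 484 at d36 and 553 at d22 in that led by Pcp4l1 and 765 at d36 and 797 at d22 in the low-count cluster led by mitochondrial genes.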

How the results depend on the processing

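Counts of genes past the size rule, median ratios and the number of members whose highest class was unchanged were recomputed under alternatives. Of these values 217 stayed and 8 moved. A count or number stayed if it was within 1.5 times the main value. A median stayed if it lay between the medians of the members' own interval limits. With the fold needed set midway between 1 and 1.5, 2 genes passed at d15 over d0 and 2 at d22 over d0. Those at d22 went opposite ways, Tsc22d3 as lower (ratio 0.687) and Sgk1 as higher (1.254). The share of all measured genes is given here only for a fold of 1.5, so counts at other folds have no background beside them. With a fold of 2, 0 passed at d36 over d0, d22 over d15 and d36 over d15. In general capillary-like cells alone, and with cells thinned to 1500 counts, Tsc22d3 passed as lower at d22 over d0, so the count was 1; the cause was not tested. With no minimum level the median log2 ratio at d36 over d0 was 0.0267 over 7 genes. Thinning to 1500 counts took Sgk1 at d36 over d0 to a ratio of 1.53, past the fold needed; thinned to 400 molecules per cell, its level was 675 CPM at d36 and 493.5 at d0, a ratio below 1.5. Among the 4 classes compared, the class with the highest level was the same under each of 9 alternatives for Tsc22d3, Sgk1, Zbtb16, Sult1a1 and Klf9, but not for Nr3c1 and Fkbp5. For 2 of these genes the leading classes were close, with intervals apart at 0 days. Mean Klf9 over days was 259 CPM in arterial-like, 255 in venous-like and 254 in general capillary-like cells. Mean Zbtb16 was 12.9 CPM in general capillary-like and 12.2 in aerocyte-like cells. No paired analysis was possible because cell names carry no library number; for the same reason no library could be left out. Intervals from the counts as deposited, values divided by 4 and rounded up, and sums without the low-count cluster were added after seeing the data. Depth limits Fkbp5 and Zbtb16 most.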

Other observations

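Among cells left out of the endothelial set, 49 cells of a cluster led by fibroblast genes such as Gsn and Col3a1 had 1625 CPM of Hsd11b1 (1377 to 1905), the enzyme that regenerates active glucocorticoid from its inert form, against 3.76 CPM (2.87 to 4.84) in EC. Tsc22d3 measured 251 CPM in them (160 to 375) and 164 CPM in EC (158 to 171), and Sgk1 163 CPM in them (91.6 to 267) and 583 CPM in EC (571 to 595). These cells were few, were pooled over days and did not enter any comparison above. In EC, Nr3c2, the mineralocorticoid receptor, measured at most 3.17 CPM at any day.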
